A study of Mus musculus with 162 samples.

Results

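The genes described here are the structural genes of the epidermal differentiation complex, a dense cluster on mouse chromosome 3 that encodes most of the protein of the cornified envelope. They were chosen by symbol: the protein-coding genes named Lce or Sprr, together with Lor, Ivl, Crnn, Rptn, Flg, Flg2, Hrnr, Tchh, Tchhl1 and Crct1, and no S100 gene. This gave 46 of the 46078 genes listed in each library. All 46 lay between positions 92080271 (Lor) and 93471980 (Tchhl1) of chromosome 3 in build GRCm38. They comprised 11 Sprr2 genes, 2 Sprr1 genes, Sprr3, Sprr4, 14 Lce1 genes, 6 Lce3 genes, Lce6a, Crct1, Lor, Ivl and 7 S100-fused genes. Sprr2g and Sprr2c-ps were annotated as pseudogenes and were not members, whereas Sprr2j-ps was annotated as protein-coding and was one.

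In terminal differentiation, keratinocytes replace their membrane with a protein shell cross-linked by transglutaminases. Loricrin (Lor) is the bulk protein of that shell in resting skin, involucrin (Ivl) is laid down early as its scaffold, and small proline-rich (Sprr) and late cornified envelope (Lce) proteins are cross-linked into it. The S100-fused proteins, among them filaggrin (Flg), filaggrin-2 (Flg2), hornerin (Hrnr) and repetin (Rptn), combine a calcium-binding S100 domain with long repeats. Trichohyalin (Tchh) belongs to the same family and is known mainly from the inner root sheath of the hair follicle.

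RNA-seq was made from cheek skin of adult male C57BL/6 mice treated once a day with 20 µL of 0.2 mM MC903 (calcipotriol, a vitamin D analog used to induce a dermatitis like atopic dermatitis) in ethanol, or with ethanol alone. Uninjected wild-type mice were sampled on day 1 (6 hours after the first treatment; 4 ethanol and 4 MC903 libraries), day 2 (2 and 3), day 5 (3 and 3) and day 8 (6 and 5). Day 8 skin was also taken from wild-type mice injected with PBS (3 and 2) or with 250 µg of the neutrophil-depleting antibody anti-Gr1 (aGr1; 4 and 4), from TSLPR KO mice, which lack the TSLP receptor subunit Crlf2 (2 and 3), and from BLT1 KO mice, named for the leukotriene B4 receptor Ltb4r1 (3 and 3). TSLPR KO skin was taken on day 12 as well (3 and 4). These 61 skin libraries held 17431296 to 67342879 reads counted to genes, with a median of 28927563. The labels do not tie libraries to single mice, so p-values measure the spread between libraries, which may be technical in part.

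Several libraries stood apart from their labels. Of 9 wild-type day 12 libraries labelled skin, 6 had less than 1000 CPM (counts of a gene, scaled to a common library total) summed over the 46 genes, and of 9 labelled trigeminal ganglion only 2 did; wild-type day 12 was left out in both tissues. Replicate 3 of day 2 MC903 held 2220 CPM of summed sensory neuron markers, against 25.5 and 29.2 CPM in its partners, and 4130 CPM of summed basal and suprabasal keratinocyte markers, against 15200 and 13800 CPM. All 8 keratinocyte markers were above 3 counts in every skin comparison. Crlf2 was at 0.0691 to 0.277 CPM in TSLPR KO skin on day 8 and 0.405 to 1.34 CPM on day 12, against 2.24 to 12.3 CPM in uninjected wild-type day 8 skin. Ltb4r1 was lower but present in BLT1 KO skin (2.33 to 3.7 CPM with ethanol and 10.6 to 15.1 CPM with MC903, against 6.66 to 10.5 and 33.5 to 77.6 CPM in uninjected wild-type), which checks that label only in part. Summed neutrophil markers (S100a8, S100a9, Retnlg, Csf3r, Cxcr2, Ly6g and Mmp8) in MC903 skin were 306 and 411 CPM after PBS and 189 to 204 CPM after aGr1. The sum does not separate neutrophils from any other cells that hold RNA of these genes, so it checks the depletion only in part. In whole skin, a change in the number of differentiating keratinocytes and a change in RNA per cell cannot be told apart.

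The upstream sequences of 3 genes that rose and 3 that fell are shown because genes of both directions held the same short motif. They were picked after their values were seen. Each is the 250 bases before the start site in RefSeq's annotation of GRCm38.p6, 5′ to 3′ on the gene's strand, with matches to the AP-1 motif TGANTCA and to TATAAA, searched on both strands, in capitals. In uninjected wild-type skin, Rptn, Sprr1b and Sprr2d were called higher with MC903 on days 5 and 8. Lor, Flg2 and Lce1m were called lower on days 1, 5 and 8. Among the genes shown, Lce1m had no match to TGANTCA and Flg2 none to TATAAA.
Rptn, chr3:93393449-93393698, plus strand: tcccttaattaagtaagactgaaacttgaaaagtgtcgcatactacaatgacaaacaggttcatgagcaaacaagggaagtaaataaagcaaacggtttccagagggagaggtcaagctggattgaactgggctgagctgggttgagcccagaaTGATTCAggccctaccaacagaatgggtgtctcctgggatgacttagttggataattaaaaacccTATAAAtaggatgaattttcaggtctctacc
Sprr1b, chr3:92438780-92439029, minus strand: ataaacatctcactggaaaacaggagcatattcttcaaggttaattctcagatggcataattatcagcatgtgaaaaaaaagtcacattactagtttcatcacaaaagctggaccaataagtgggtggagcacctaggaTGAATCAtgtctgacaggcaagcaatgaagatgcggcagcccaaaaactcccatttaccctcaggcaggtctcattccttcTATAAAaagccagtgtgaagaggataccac
Sprr2d, chr3:92338890-92339139, plus strand: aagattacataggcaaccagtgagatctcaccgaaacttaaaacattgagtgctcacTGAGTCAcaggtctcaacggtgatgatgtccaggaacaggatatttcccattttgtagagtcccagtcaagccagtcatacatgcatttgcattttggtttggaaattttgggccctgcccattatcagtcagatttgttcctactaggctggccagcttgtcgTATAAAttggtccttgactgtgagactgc
Lor, chr3:92083143-92083392, minus strand: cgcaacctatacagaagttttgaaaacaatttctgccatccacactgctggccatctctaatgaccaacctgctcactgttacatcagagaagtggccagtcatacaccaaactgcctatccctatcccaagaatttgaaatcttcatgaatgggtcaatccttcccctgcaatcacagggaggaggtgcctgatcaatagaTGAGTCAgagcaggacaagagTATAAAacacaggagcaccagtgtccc
Flg2, chr3:93197023-93197272, plus strand: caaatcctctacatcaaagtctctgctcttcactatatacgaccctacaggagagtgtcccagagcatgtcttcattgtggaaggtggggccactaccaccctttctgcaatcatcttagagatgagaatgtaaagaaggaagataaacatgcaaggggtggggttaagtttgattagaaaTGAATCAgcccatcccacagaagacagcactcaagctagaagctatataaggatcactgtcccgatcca
Lce1m, chr3:93019062-93019311, minus strand: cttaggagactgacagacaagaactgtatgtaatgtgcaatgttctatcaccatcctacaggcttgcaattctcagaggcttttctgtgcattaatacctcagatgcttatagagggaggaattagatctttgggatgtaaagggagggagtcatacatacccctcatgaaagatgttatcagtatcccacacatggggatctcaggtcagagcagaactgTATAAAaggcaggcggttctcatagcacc
Promoters of 300 bases (the 250 shown and 50 more into the gene) were matched for 43 of the 46 genes. TGANTCA occurred in 16 of these 43 and in 7.81% of all 32851 promoters of the same length, and TATAAA in 20 of 43 and 13.6% of all. Among the genes with TGANTCA were 7 Sprr2 genes, each with a match between 193 and 198 bases before the start, as well as Sprr1a, Sprr1b, Rptn, Ivl, Lor, Flg, Flg2, Crnn and Tchhl1. The motif was thus present upstream of genes of both directions, and it was found in no matched Lce promoter. The hexamers AGGTCA or AGTTCA, from which vitamin D receptor elements are built, were in 16 of 43 and 27.7% of all promoters, and the STAT motif TTCNNNGAA in 3 of 43 and 8.3%. A match is a run of letters and not a bound site.

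Because the reads were 50 bases long, part of the genes could not be told apart by their transcripts. Of the distinct 50-base words of the Sprr2a1 transcripts 96.3% also occurred in another gene, and the shares were 96.5% for Sprr2a2 and 61.1% for Sprr2a3. The annotated Sprr2a1 and Sprr2a2 loci overlap, and over the 61 skin libraries their counts stood at a ratio between 0.705 and 1.32, median 0.991. They are therefore one signal under different names. Shares were 12.1% to 49.3% in the Lce3 genes and 9.12% to 27.1% in the Lce1 genes other than Lce1m. No 50-base word of Lor, Lce1m, Sprr1a, Sprr1b, Rptn, Flg2 or Hrnr occurred in another gene. Repeats within a gene are a separate limit. Flg, Flg2 and Hrnr had 8721, 9055 and 4559 distinct words for 18829, 20803 and 11187 exonic bases. Reads from such repeats may be lost in counting, so the CPM and RPKM of these genes may be too low.

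MC903 changed few of these genes within 6 hours and most of them by day 5. On day 1, 4 of the 42 genes tested were higher with MC903 (5.51% of all genes tested were) and 8 were lower (7.47% of all) in edgeR's quasi-likelihood test at a Benjamini-Hochberg adjusted p under 0.05. On day 5, 33 of 45 were higher (8.15% of all genes) and 3 lower (6.78%). On day 8, 32 of 45 were higher (12.2% of all genes) and 7 lower (11.2%). The median log2 fold change of the genes tested was 0.09 on day 1, 2.88 on day 5 and 2.06 on day 8, beside medians of 0.00127, -0.03 and -0.03 over all genes. On day 5, Sprr2j-ps and Sprr2k had no count in any ethanol library, and with these set to the bound that a floor of 3 counts per library allows the median was 2.56. Sprr3 was at or near 0 and was never tested. The uninjected wild-type day 8 libraries carry labels of 2 styles, with a bracketed library name (called cohort A here; 3 ethanol and 3 MC903) or without one (cohort B; 3 and 2). No label says what the styles stand for, and the cohort was a term in the tests that used both. Within cohort A 31 genes were higher and 7 lower, and within cohort B 28 and 3. The day 1 count depended on single libraries: 20 genes passed without ethanol replicate 1, and 5 to 7 without ethanol replicate 2 or 3 or without any 1 of the MC903 libraries. The counts by cohort and with a library left out have no share of all genes beside them. They show only how far the calls depended on the libraries.

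On day 2 no gene at all passed (0.0% of 24580 genes higher and 0.0% lower), and 31 of the 42 genes tested here had an unadjusted p under 0.05, against 1191 of all genes. The ethanol and MC903 libraries did not overlap for 13 genes that were higher with MC903 (10.6% of all genes) and for 19 that were lower (8.9% of all). DESeq2 called 10 higher and 7 lower. Leaving out MC903 replicate 3, the library with neuronal markers, 8 genes passed, all higher. Neither the DESeq2 count nor this one has a share of all genes beside it. With only 2 ethanol libraries, day 2 values are given below as levels. Sprr2a3 was at 2.69 and 2.77 CPM with ethanol and at 120, 252 and 312 CPM with MC903, and Rptn at 35.2 and 70.6 against 552, 594 and 1030 CPM. In the other direction, Lce1m was at 416 and 574 CPM with ethanol and at 54.3, 97.9 and 171 CPM with MC903.

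**Figure D1:**
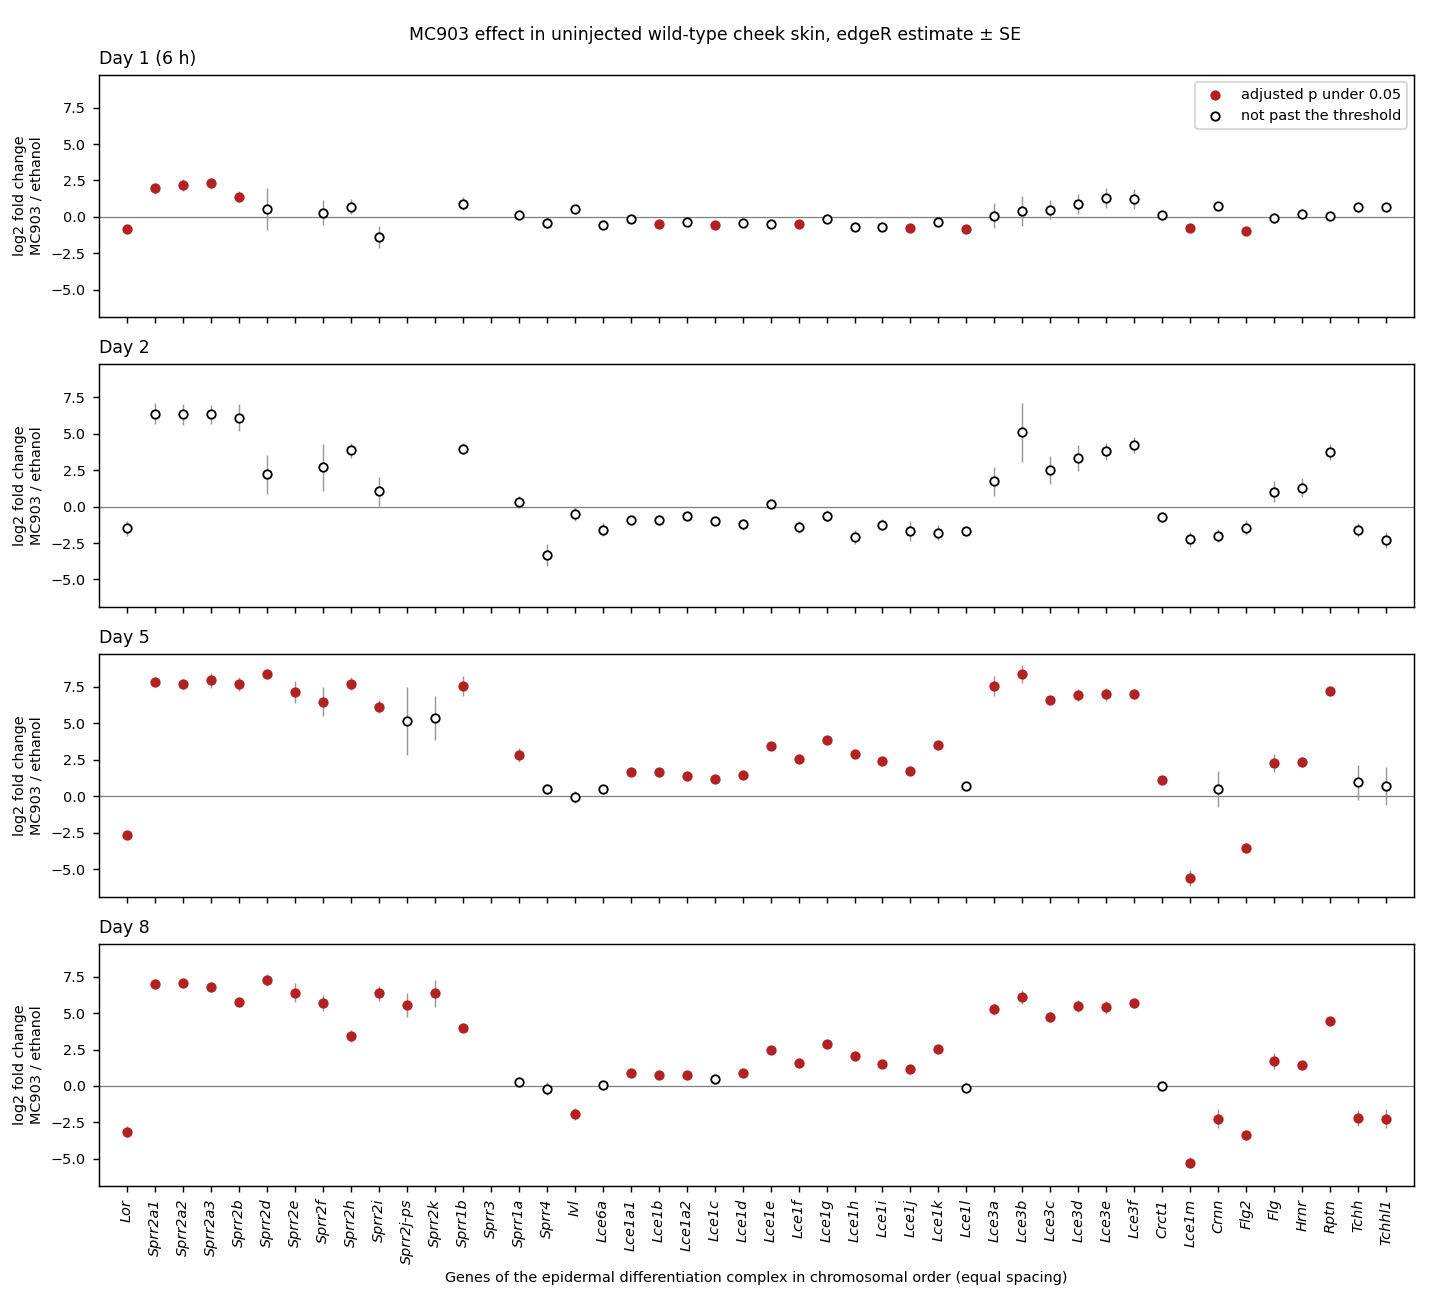
Log2 fold change of MC903 over ethanol (vertical axis, edgeR estimate ± SE) for each of the genes, placed in chromosomal order at equal spacing (horizontal axis), in uninjected wild-type skin on days 1, 2, 5 and 8. Filled points passed an adjusted p of 0.05; the Sprr2 and Lce3 blocks lie far above 0 on days 5 and 8, while Lor, Lce1m and Flg2 lie below it on days 1, 5 and 8.

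The Sprr2 genes, which encode short cross-linking proteins rich in proline, held the only members higher on day 1. They were among those with the highest fold changes on days 5 and 8. On day 1, 4 of 8 tested were higher (5.51% of all genes were), namely Sprr2a1, Sprr2a2, Sprr2a3 and Sprr2b. Sprr2a1, Sprr2a2 and Sprr2a3 share most of their 50-base words with other genes, so the 4 calls are not 4 separate results. Sprr2a3 was at 1.69, 2.25, 2.33 and 2.62 CPM in the ethanol libraries and at 6.96, 7.52, 8.83 and 21.8 CPM in the MC903 libraries (log2 fold change 2.31, SE 0.36, edgeR adjusted p = 0.00455). Every MC903 library was above every ethanol library, and 1 of them stood well above the rest. Sprr2a1 and Sprr2a2, read together as one signal, differed by 1.95 and 2.18 (SE 0.38 and 0.42, adjusted p = 0.0116 for both). By day 5, 9 of 11 Sprr2 genes were higher with a median log2 fold change of 7.68 over the 11, and by day 8 all 11 were, with a median of 6.38. Sprr2d was at 0.0985, 0.108 and 0.201 CPM with ethanol on day 5 and at 40.6, 44.5 and 61.8 CPM with MC903 (log2 fold change 8.38, SE 0.32, edgeR adjusted p = 1.3e-05). On day 8 Sprr2a1 had a lowest, median and highest level of 10.3, 12.4 and 21.4 CPM in the ethanol libraries, and was at 1000, 1220, 1430, 2830 and 3340 CPM with MC903 (log2 fold change 6.997, SE 0.35, adjusted p = 3.46e-08), and Sprr2a2 differed by 7.05 (SE 0.34, adjusted p = 3.34e-08). Summed over the 11 genes, Sprr2 reads made up a median of 0.00103% of gene counts with ethanol on day 5 and 0.244% with MC903, and 0.00494% and 0.339% on day 8. Sprr2e and Sprr2f, at no more than 0.0361 and 0.0723 CPM in the ethanol libraries of day 5, were at 1.76 to 3.55 and 1.39 to 5.14 CPM with MC903.

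The Sprr1 genes, the other small proline-rich genes of squamous epithelia, parted from each other over time. Neither passed on day 1. Sprr1b was at 0.683, 1.38 and 3.07 CPM with ethanol on day 5 and at 364, 377 and 421 CPM with MC903 (log2 fold change 7.59, SE 0.69, adjusted p = 0.00061), and on day 8 at 8.52, 12.7 and 31.5 CPM (lowest, median and highest) against 150, 232, 234, 274 and 341 CPM (log2 fold change 4.0, SE 0.30, adjusted p = 1.32e-06). Sprr1a was already abundant with ethanol, at 67.3, 73.8 and 145 CPM on day 5, and rose to 654, 728 and 969 CPM with MC903 (log2 fold change 2.83, SE 0.45, adjusted p = 0.00664). On day 8 the groups for Sprr1a overlapped, with 374, 498 and 790 CPM as lowest, median and highest with ethanol and 397, 523, 575, 688 and 1230 CPM with MC903 (log2 fold change 0.27, SE 0.31, adjusted p = 0.571). Its ethanol level was thus higher on day 8 than on day 5 in every library, a difference between libraries of different days that was not tested. Sprr4 passed neither on day 5 nor on day 8, with log2 fold changes of 0.51 and -0.20.

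The late cornified envelope genes split by group. All 6 Lce3 genes, which in human skin are known as genes of injured and psoriatic epidermis, were higher on days 5 and 8, with median log2 fold changes of 7.01 and 5.43. None of the 6 passed on day 1. Lce3c was at 0.401, 0.434 and 0.46 CPM with ethanol on day 5 and at 38.6, 40.6 and 57.3 CPM with MC903 (log2 fold change 6.60, SE 0.27, adjusted p = 1.3e-05). Lce3e on day 8 had a lowest, median and highest of 0.215, 0.434 and 1.77 CPM with ethanol and was at 13.8, 20.8, 23.8, 41.7 and 43.9 CPM with MC903. The summed Lce3 level stayed far under that of Sprr2, with day 5 medians of 159 and 2440 CPM in MC903 skin.

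Of the 14 Lce1 genes, the Lce group of resting epidermis, 6 were lower on day 1 and most were higher on days 5 and 8. The 6 lower on day 1 (Lce1b, Lce1c, Lce1f, Lce1j, Lce1l and Lce1m) had log2 fold changes between -0.85 and -0.49, the other 8 did not pass, and none was higher. Over all the genes of the complex, the 8 lower calls of day 1 became 1 with 1 fit over days 1 to 8, and 2 to 4 when any 1 library other than ethanol replicate 1 was left out. Lce1l was at 36.1, 43.7, 44.6 and 55.8 CPM with ethanol and at 14.9, 28.9, 29.8 and 31.05 CPM with MC903 (log2 fold change -0.85, SE 0.19, adjusted p = 0.0183), and it did not pass without ethanol replicate 2. On day 5, 12 of 14 were higher and on day 8, 11 of 14. Lce1g had the highest log2 fold change of the 14 on day 5, from 8.63, 9.25 and 11.4 CPM with ethanol to 137, 138 and 179 CPM with MC903 on day 5 (log2 fold change 3.84, SE 0.22, adjusted p = 8.17e-05), and Lce1e and Lce1k rose by 3.48 and 3.51. Between days 1 and 5 the MC903 effect differed by 3.93 for Lce1e, 3.87 for Lce1k and 7.11 for Rptn (SE 0.26, 0.32 and 0.37, adjusted p = 1.5e-06, 6.05e-06 and 3.25e-07 for the difference itself). In that test of day 5 minus day 1, 33 of the 45 genes were higher (7.28% of all genes) and 3 lower (3.52%), the 3 being Lor, Flg2 and Lce1m.

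Lce1m lies apart from the other Lce1 genes, on the far side of the Lce3 block next to Crct1, and it fell at each time at which genes were called. It was at 375, 428, 540 and 611 CPM with ethanol on day 1 and at 203, 277, 348 and 352 CPM with MC903 (log2 fold change -0.78, SE 0.16, adjusted p = 0.0144), and it did not pass without MC903 replicate 2. On day 5 it was at 243, 743 and 773 CPM with ethanol and at 5.81, 12.9 and 18.2 CPM with MC903 (log2 fold change -5.58, SE 0.54, adjusted p = 0.000827). On day 8 the lowest, median and highest with ethanol were 215, 254 and 541 CPM, and the MC903 libraries stood at 3.88, 5.8, 7.43, 11.3 and 13.4 CPM (log2 fold change -5.26, SE 0.36, adjusted p = 5.28e-07). Per length (reads per kilobase of exon, scaled to depth, RPKM), Lce1m had the highest median of the 46 genes in day 5 ethanol skin at 783 RPKM, ahead of Lor at 206 RPKM. Its neighbour Crct1, a gene of squamous epithelia, was higher on day 5 (log2 fold change 1.10, adjusted p = 0.0138) and did not pass on day 8, where its groups overlapped (SE of the log2 fold change 0.17).

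**Figure D2:**
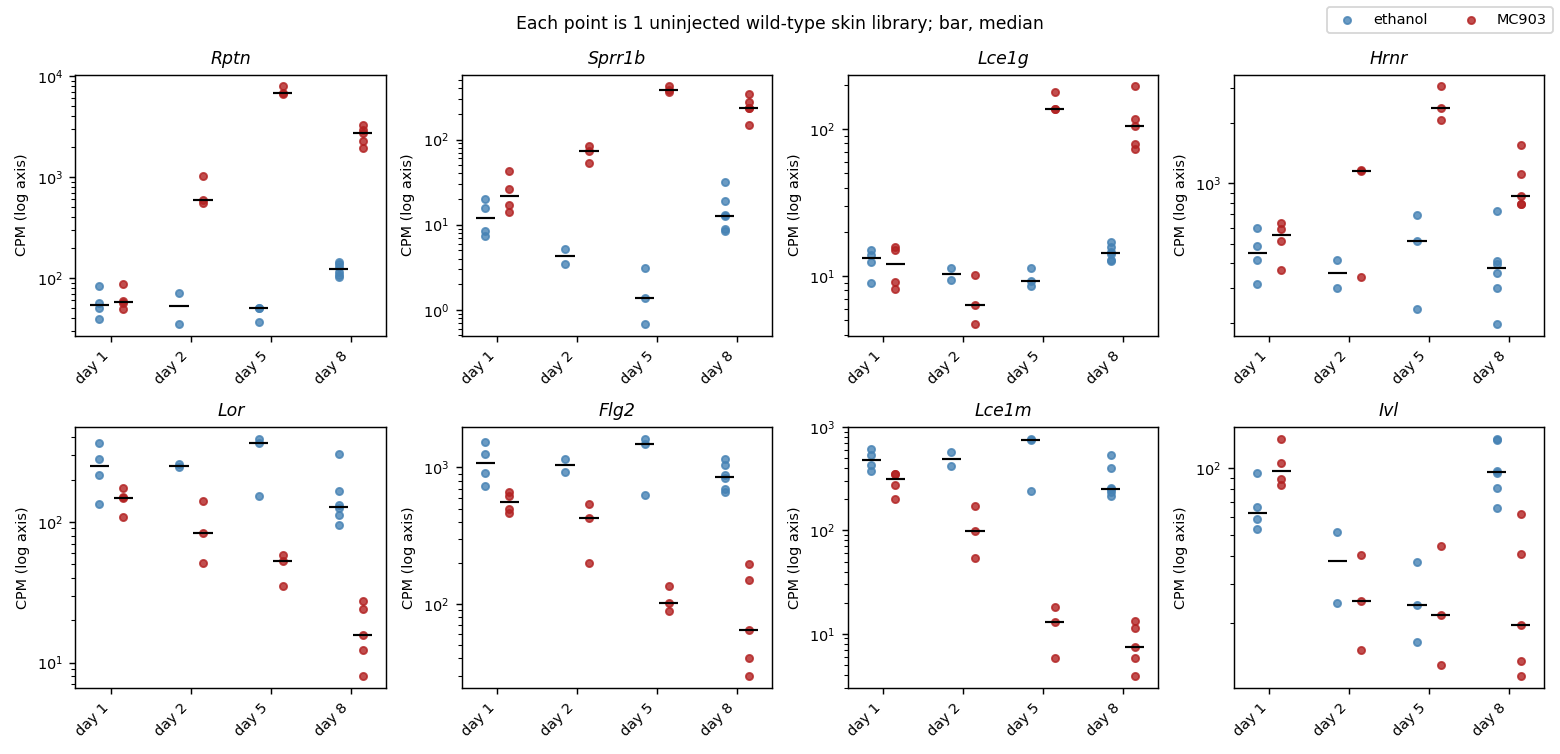
Level of 8 genes (CPM, log axis) in each uninjected wild-type skin library with ethanol (blue) or MC903 (red) on days 1, 2, 5 and 8, with the median as a bar. Rptn, Sprr1b and Lce1g separate upward on day 5 and day 8, and Lor, Flg2 and Lce1m separate downward.

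The genes of loricrin and involucrin, the main shell proteins of resting skin, were not called higher on any day. Lor was at 134, 214, 282 and 362 CPM with ethanol on day 1 and at 109, 147, 151 and 175 CPM with MC903, so the groups overlapped (log2 fold change -0.80, SE 0.23, adjusted p = 0.0493), and it did not pass when any 1 library other than ethanol replicate 1 was left out. On day 5 it was at 152, 366 and 390 CPM against 35.1, 52.8 and 58.4 CPM (log2 fold change -2.67, SE 0.30, adjusted p = 0.00159), and on day 8 the lowest, median and highest of 95.1, 128.2 and 305 CPM with ethanol stood against 8.01, 12.2, 15.8, 24 and 27.4 CPM with MC903 (log2 fold change -3.16, SE 0.38, adjusted p = 7.63e-05). Ivl did not pass on day 1 (53.1, 58.8, 66.8 and 94.9 against 84.02, 89.5, 105 and 135 CPM, log2 fold change 0.56, SE 0.20, adjusted p = 0.101) or on day 5 (log2 fold change -0.04, SE 0.42). On day 8 Ivl had 66.04, 95.9 and 134 CPM as lowest, median and highest with ethanol and was at 11.6, 13.5, 19.6, 40.95 and 62.1 CPM with MC903 (log2 fold change -1.93, SE 0.41, adjusted p = 0.00455). The MC903 libraries at 40.95 and 62.1 CPM, both of cohort B, came near the ethanol range without reaching it, and within cohort B alone Ivl did not pass (log2 fold change -0.74, adjusted p = 0.11).

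The S100-fused genes went in opposite directions. Rptn, an envelope precursor that is scarce in most resting epidermis, was at 36.6, 50.02 and 50.6 CPM with ethanol on day 5 and at 6670, 6820 and 7900 CPM with MC903 (log2 fold change 7.20, SE 0.29, adjusted p = 1.3e-05). Its median of 1640 RPKM with MC903 was the highest of the 46 genes. On day 8 Rptn had 102, 122.2 and 145 CPM as lowest, median and highest with ethanol and was at 1940, 2270, 2750, 2940 and 3280 CPM with MC903 (log2 fold change 4.43, SE 0.20, adjusted p = 1.62e-08). On day 1 it had not passed (39.6, 50.96, 56.8 and 83.8 against 48.9, 57.1, 59.2 and 87.5 CPM). Hrnr, a filaggrin-like repeat protein, rose to 2090, 2390 and 3060 CPM on day 5 from 234, 513 and 695 CPM (log2 fold change 2.36, SE 0.33, adjusted p = 0.00377) and by 1.45 on day 8 (SE 0.26, adjusted p = 0.0017). Flg had few counts in every skin library. Reads from its internal repeats may be lost, so this need not mean that its RNA was scarce. On day 5 Flg was at 0.328, 0.522 and 1.41 CPM with ethanol and 4.02, 4.43 and 4.48 CPM with MC903 (log2 fold change 2.30, SE 0.60, adjusted p = 0.0382). Its day 8 groups overlapped although it passed (log2 fold change 1.71, SE 0.57, adjusted p = 0.0471). Flg did not pass in either day 8 cohort alone, nor on day 5 without any 1 of 5 libraries (all but ethanol replicate 3).

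Flg2, the filaggrin paralog of the outer granular layer, fell at every time that gave calls. It was at 728, 905, 1260 and 1520 CPM with ethanol on day 1 and at 465, 496, 615 and 661 CPM with MC903 (log2 fold change -1.0, SE 0.17, adjusted p = 0.00738). On day 5 the values were 624, 1480 and 1620 CPM against 89.4, 101 and 134 CPM (log2 fold change -3.54, SE 0.32, adjusted p = 0.000591). On day 8 the lowest, median and highest were 658, 856 and 1160 CPM with ethanol, and the MC903 libraries were at 29.7, 40.4, 64.2, 151 and 195 CPM (log2 fold change -3.36, SE 0.35, adjusted p = 1.99e-05). The groups did not overlap on any of these days.

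Tchh, Tchhl1 and Crnn were lower on day 8, with log2 fold changes of -2.18, -2.24 and -2.25 (SE 0.55, 0.65 and 0.66, adjusted p = 0.0121, 0.0242 and 0.0259), and their groups overlapped. Tchh ranged from 4590 to 41400 CPM with ethanol and from 2700 to 9940 CPM with MC903. Markers of the hair shaft and inner root sheath, 9 of 10 of which were above 3 counts, moved with them: their sum had a lowest, median and highest of 12700, 21000 and 36000 CPM with ethanol and 778, 5720 and 13900 CPM with MC903. On day 5, when the hair markers spanned 665 to 5960 CPM with ethanol and 524 to 13300 CPM with MC903, none of the 3 genes passed. The part of the hair markers in these values was not tested.

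Other marker sums also moved with MC903 in skin. The 4 stress keratinocyte markers Krt6a, Krt6b, Krt16 and Krt17 went from a median of 805 to 26200 CPM on day 5 and from 2070 to 22200 CPM on day 8. Basal and suprabasal keratinocyte markers went from 13700 to 20800 CPM on day 5 and from 13400 to 20700 CPM on day 8. Skeletal muscle markers, all 7 of them above 3 counts, went from 13300 to 5550 CPM and from 9190 to 2470 CPM. Their part in the changes of the cornified envelope genes was not tested.

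From day 5 to day 8 the MC903 effect became smaller for 5 of 45 genes (0.916% of all genes) and larger for none (0.706% of all). These were Rptn, Sprr2h, Sprr1b, Sprr1a and Lce1k. The difference between the log2 fold changes was -2.76 for Rptn (SE 0.28, adjusted p = 0.000246), -4.28 for Sprr2h (SE 0.67, adjusted p = 0.0055) and -3.57 for Sprr1b (SE 0.63, adjusted p = 0.011). For each of these 3 genes the ethanol libraries were also higher on day 8 than on day 5: Sprr2h, for example, was at 0.723, 1.25 and 1.41 CPM with ethanol on day 5 and at 7.27, 11.9 and 58.6 CPM (lowest, median and highest) on day 8, while with MC903 it was at 198, 281 and 325 and then at 148, 175, 184, 189 and 245 CPM. With cohort B as the only day 8 libraries, Rptn and Sprr2h passed (differences of -2.52 and -3.34, adjusted p = 0.00981 and 0.0161) and the other 3 did not. Rptn, Sprr2h and Sprr1b passed whichever 1 library was left out, and 3 to 7 genes were called in all.

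The other day 8 groups and TSLPR KO skin on day 12 also had more members higher than lower. After PBS injection 20 of 45 genes were higher (3.26% of all genes) and 3 lower (0.721%), and after aGr1 28 were higher (15.1%) and 8 lower (17.5%). In TSLPR KO skin on day 8, 17 were higher (1.3%) and 3 lower (1.14%), and on day 12, 28 were higher (5.41%) and 2 lower (4.62%). In BLT1 KO skin 27 were higher (14.1%) and 7 lower (14.6%). Median log2 fold changes were 1.56, 2.12, 1.51, 2.66 and 2.30 in that order, and the median was 1.39 in TSLPR KO skin on day 8 with Sprr2k, which had no count with ethanol, at its bound. Over these 5 comparisons and days 5 and 8 of uninjected wild-type skin, each with its own ethanol libraries, 15 genes were higher in all 7: the 6 Lce3 genes, Lce1e, Lce1g, Rptn, Sprr1b and 5 Sprr2 genes (Sprr2a1, Sprr2a2, Sprr2a3, Sprr2b and Sprr2d). Lce1m and Flg2 were lower in all 7, and Lor in 6. The share of all genes called the same way in all 7 was not computed, so these counts have no background beside them. Sprr2a1 and Sprr2a2 are not separate signals. Only Lce1c and Tchh were higher in some and lower in others.

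**Figure D3:**
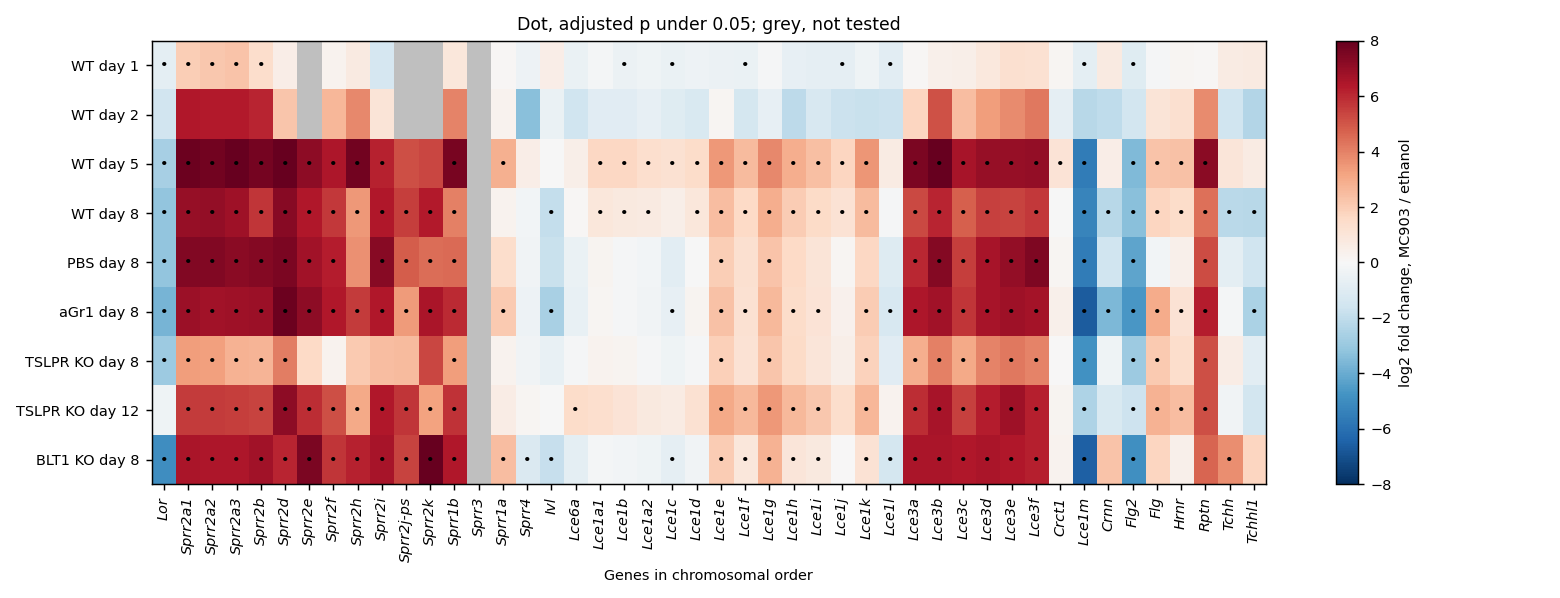
Log2 fold change of MC903 over ethanol (colour, red higher and blue lower) for each gene in chromosomal order (columns) in the 9 skin comparisons (rows), with a dot where the adjusted p was under 0.05 and grey where a gene was not tested. The Lce3 block, Rptn and Sprr1b are red and dotted in the 7 comparisons from day 5 on, and Lce1m and Flg2 are blue and dotted in the same 7.

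In PBS-injected skin the smallest p-values belonged to Sprr2i, Lce3f and Lce3e among genes that rose and to Flg2, Lce1m and Lor among those that fell. Sprr2i was at 0.237, 0.481 and 0.516 CPM with ethanol and at 63.2 and 63.9 CPM with MC903 (log2 fold change 7.28, SE 0.32, adjusted p = 0.000592). Lce3f was at 0.275, 0.395 and 0.476 CPM against 52.3 and 80.9 CPM, and Lce3e at 0.237, 0.413 and 0.476 CPM against 39.1 and 59.1 CPM (log2 fold changes 7.47 and 7.04, SE 0.33 and 0.35, adjusted p = 0.000592 and 0.000808). Flg2 was at 1060, 1450 and 1980 CPM with ethanol and at 54.1 and 101 CPM with MC903 (log2 fold change -4.23, SE 0.48, adjusted p = 0.00812). Lce1m (138, 237 and 515 against 3.98 and 7.84 CPM) and Lor (312, 625.5 and 967 against 64.1 and 77.2 CPM) differed by -5.60 and -3.13 (SE 0.75 and 0.52, adjusted p = 0.0139 and 0.0268). With only 2 MC903 libraries the calls depended on single libraries: without MC903 replicate 1 or ethanol replicate 1 none of the 3 falls passed, and 15 and 11 genes were called. Lor and Lce1m did not pass without MC903 replicate 2 either.

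In aGr1-injected skin Sprr2i, Rptn and Sprr2d led the rises. Sprr2i was at 0.329, 0.425, 0.435 and 0.723 CPM with ethanol and at 42.02, 53.7, 55.96 and 56.4 CPM with MC903 (log2 fold change 6.42, SE 0.19, adjusted p = 3.33e-07). Rptn was at 17.9, 28.1, 33.1 and 57.3 CPM against 2700, 2810, 3470 and 4110 CPM, and Sprr2d at 0.219, 0.522, 1.08 and 1.9 CPM against 207, 230, 287 and 305 CPM (log2 fold changes 6.28 and 7.84, SE 0.32 and 0.47, adjusted p = 6.82e-06 and 1.14e-05). Flg2 fell from 1330, 1380, 1470 and 2150 CPM to 57.8, 86.5, 90.05 and 92.4 CPM (log2 fold change -4.63, SE 0.23, adjusted p = 5.31e-06), and Lor and Lce1m differed by -3.72 and -6.68 (SE 0.24 and 0.51, adjusted p = 1.63e-05 and 3.59e-05). Lce1c and Lce1l, which are Lce1 genes of the main cluster, were lower here as well (log2 fold changes -0.65 and -1.25), while Lce1e, Lce1f, Lce1g, Lce1h, Lce1i and Lce1k were higher.

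The question put by the aGr1 group is whether neutrophil depletion alters the MC903 effect. Against uninjected wild-type day 8 skin, the log2 fold change was higher after aGr1 for 2 of 45 genes (1.2% of all genes) and lower for 1 (3.36%). The differences in log2 fold change were 1.87 for Rptn (SE 0.31, adjusted p = 0.00495), 1.86 for Sprr1a (SE 0.51, adjusted p = 0.0436) and -0.99 for Lce1a2 (SE 0.27, adjusted p = 0.0425). The ethanol libraries of Rptn were lower after aGr1 than in uninjected mice, at 17.9 to 57.3 CPM against 102 to 145 CPM. Those of Sprr1a, at 86.2, 184, 219 and 458 CPM against 374 to 790 CPM, were lower in 3 of 4. The MC903 libraries of Sprr1a were at 875, 1270, 1380 and 1440 CPM after aGr1. PBS-injected mice are the injected controls for aGr1, and with them in place of uninjected mice none of the 45 genes passed (62 of all 26712 genes did). Of the 45, 3 had an unadjusted p under 0.05, a count that has none over all genes beside it. The differences were then 1.09 for Rptn, 0.74 for Sprr1a and -0.04 for Lce1a2, with adjusted p = 0.411, 0.753 and 0.996. Against uninjected mice, Rptn alone passed whichever 1 library was left out, and the count of genes called ranged from 1 to 7, with 7 without ethanol replicate skin3 of cohort A and 5 without aGr1 ethanol replicate 1 or MC903 replicate 2 of cohort B. Basal and suprabasal keratinocyte markers, at 6450 to 15600 CPM in the aGr1 ethanol libraries and 12700 to 21100 CPM with MC903, moved in the same direction as Rptn and Sprr1a, and their part was not tested.

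TSLP signals through Crlf2, and the question put by TSLPR KO skin is which MC903 effects need it. The Sprr2a genes still rose in TSLPR KO skin on day 8, but by less. Sprr2a1 was at 18.3 and 33.3 CPM with ethanol and at 229, 246 and 277 CPM with MC903 (log2 fold change 3.32, SE 0.32, adjusted p = 0.00114), and Sprr2a3 at 5.68 and 9.85 CPM against 43.97, 48.99 and 62.8 CPM, whereas Sprr2a3 was at 282, 286, 311, 692 and 846 CPM with MC903 in wild-type. Compared with the uninjected wild-type effect, the difference was -3.98 for Sprr2a3, -3.71 for Sprr2a2 and -3.64 for Sprr2a1 (SE 0.49, 0.48 and 0.49, adjusted p = 0.00624 for each). These 3 were lower of 45 genes (0.166% of all genes were) and none was higher (0.0111%). Of the 45, 19 had an unadjusted p under 0.05, against 3460 of all 27120 genes. The 3 are not separate results: Sprr2a1 and Sprr2a2 are 1 signal, and 61.1% of the 50-base words of Sprr2a3 also occur in another gene. With the cohort B libraries, whose labels have the style of the TSLPR KO labels, as the only wild-type, the same 3 passed, with differences of -3.66, -3.30 and -3.21 (adjusted p = 0.0127 for each, of 5 genes in all). Without TSLPR KO ethanol replicate 1 none of the 45 passed (differences of -3.62, -3.28 and -3.24 in the same order, adjusted p = 0.106 for each), and without MC903 replicate skin2 of cohort A 7 did. Both ethanol libraries of the TSLPR KO lay above the wild-type median for Sprr2a1 (12.4 CPM), and the MC903 libraries lay under all 5 wild-type ones. Over the 11 Sprr2 genes, the summed median went from 80.5 to 629 CPM in TSLPR KO skin and from 49.4 to 3390 CPM in wild-type.

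Other rises in TSLPR KO skin on day 8 were not called different from wild-type, but smaller effects were not confined to the Sprr2a genes. The differences from wild-type ran from -5.34 to -0.88 over the 11 Sprr2 genes (median -3.64). They ran from -2.36 to -1.14 over the 6 Lce3 genes and from -0.02 to 2.77 over the 7 S100-fused genes. Of the 11 Sprr2 genes, 5 were called higher in TSLPR KO skin and 11 in wild-type. Rptn was at 106 and 107 CPM with ethanol and at 3290, 3760 and 3980 CPM with MC903 (log2 fold change 5.12, SE 0.37, adjusted p = 0.000325), and Lce3d at 1.04 and 1.77 CPM against 15.5, 23.3 and 28.7 CPM (log2 fold change 3.996, SE 0.38, adjusted p = 0.00112). All 6 Lce3 genes passed, with a median log2 fold change of 3.99. Lce1m went from 311 and 728 CPM to 10.2, 16.9 and 24.8 CPM (log2 fold change -4.86, SE 0.46, adjusted p = 0.000968), Flg2 from 956 and 1760 CPM to 146, 173 and 204 CPM and Lor from 134 and 444 CPM to 35.2, 38.3 and 38.6 CPM (log2 fold changes -2.93 and -2.91, SE 0.32 and 0.40, adjusted p = 0.00211 and 0.00605). Stress keratinocyte markers were at 9170 to 13000 CPM with MC903 in this group and at 14700 to 29300 CPM in wild-type. Without MC903 replicate 1 of this group, 11 genes were called instead of 20, and Lor was not among them.

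On day 12 in TSLPR KO skin, which has no wild-type counterpart here, all 11 Sprr2 genes were higher, with a median log2 fold change of 5.59. Sprr1b was at 6.12, 8.82 and 10.2 CPM with ethanol and at 449, 460, 473 and 759 CPM with MC903 (log2 fold change 5.80, SE 0.32, adjusted p = 5.01e-05). Lce3e was at 0.151, 0.192 and 0.27 CPM against 17.6, 19.3, 31.01 and 37.6 CPM and Lce3d at 0.192, 0.247 and 0.252 CPM against 12.8, 13.1, 27.2 and 28.8 CPM (log2 fold changes 6.78 and 6.27, SE 0.46 and 0.46, adjusted p = 0.000122 and 0.000181). Lce1m was at 111.8, 288 and 390 CPM with ethanol and at 14.2, 32.2, 55.8 and 105 CPM with MC903 (log2 fold change -2.49, SE 0.57, adjusted p = 0.0275). Flg2 passed although its groups overlapped (435, 878 and 947 against 119.1, 221, 249 and 510 CPM, log2 fold change -1.64, SE 0.42, adjusted p = 0.0399). Lce1m did not pass without MC903 replicate 2 or 4 or ethanol replicate 1 or 2, nor Flg2 without MC903 replicate 1, 3 or 4 or ethanol replicate 1 or 2. Lor did not pass, at 222, 863 and 1030 CPM with ethanol and 244, 434, 769 and 1020 CPM with MC903 (log2 fold change -0.32, SE 0.52, adjusted p = 0.75), nor did Ivl (log2 fold change -0.06, SE 0.21). Lce6a was higher in this comparison alone of the 9 (7.39, 11.6 and 15.1 against 18.7, 27.6, 46.97 and 47.96 CPM, log2 fold change 1.47, adjusted p = 0.0207). Keratinocyte markers also stood apart here, at 6880 to 18400 CPM with ethanol and 23600 to 34300 CPM with MC903.

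BLT1 is a receptor of leukotriene B4 on leukocytes, and the question put by BLT1 KO skin is whether the MC903 response differs in these mice, whose label the Ltb4r1 counts check only in part. Rptn rose from 82.7, 104 and 127.2 CPM to 1990, 2650 and 3220 CPM (log2 fold change 4.63, SE 0.28, adjusted p = 1.87e-05), Lce3e from 0.193, 0.591 and 0.603 CPM to 34.5, 37.0 and 44.6 CPM (6.38, SE 0.41, adjusted p = 2.42e-05), and Sprr1a from 128.7, 128.7 and 169 CPM to 789, 791 and 840 CPM (log2 fold change 2.47, SE 0.16, adjusted p = 2.7e-05). Lce1m fell from 695, 713 and 876 CPM to 6.65, 8.66 and 9.66 CPM (log2 fold change -6.56, SE 0.22, adjusted p = 2.37e-06). Flg2 went from 1180, 1620 and 1870 CPM to 33.1, 52.8 and 73.8 CPM and Ivl from 35.3, 40.1 and 51.7 CPM to 11.2, 11.9 and 13.1 CPM (log2 fold changes -4.92 and -1.84, SE 0.31 and 0.17, adjusted p = 2.39e-05 and 0.000119). Lor was at 465, 521 and 732 CPM with ethanol and at 7.3, 22.5 and 27.4 CPM with MC903. Sprr2k had no count in the ethanol libraries and was at least 13.7-fold higher with MC903, against a floor of 3 counts per library.

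Against the uninjected wild-type effect, the log2 fold change in BLT1 KO skin was higher for 5 of 45 genes (4.35% of all genes) and lower for 9 (2.6%). With cohort B as the only wild-type, 5 genes passed, and only Sprr1a was among the 14. All 9 that were lower were Lce1 genes, with differences between -1.38 and -0.96, led by Lce1k at -1.38 (SE 0.24, adjusted p = 0.00274). Lce1k was at 9.75, 12.1 and 15.6 CPM with ethanol in BLT1 KO skin and at 5.09 to 7.34 CPM in wild-type, and at 24.1, 27.9 and 32.2 CPM against 23.2 to 47.1 CPM with MC903. None of these 9 passed with cohort B as the only wild-type (adjusted p = 0.0663 for Lce1k to 0.383 for Lce1j). The 5 that were higher were Sprr1a (2.24, SE 0.46, adjusted p = 0.00717), Sprr1b, Sprr2h, Crnn and Tchh (5.96, SE 1.24, adjusted p = 0.00827). For Tchh the sign turned, with log2 fold changes of -2.18 in wild-type and 3.74 in BLT1 KO skin (adjusted p = 0.0121 and 0.0304). Crnn was lower in wild-type (-2.25) and did not pass in BLT1 KO skin (2.30, adjusted p = 0.105). Tchh was at 51.6, 75.5 and 800 CPM with ethanol in BLT1 KO skin, under every uninjected wild-type ethanol library of day 8, and at 2230, 2470 and 7570 CPM with MC903. The hair markers were likewise at 7.71, 66.3 and 428 CPM (lowest, median and highest) with ethanol in BLT1 KO skin and at 283, 977 and 1010 CPM with MC903, and skeletal muscle markers went from 27700 to 4390 CPM (medians). Their part in these differences was not tested. The lowest ethanol libraries of aGr1-injected and of day 5 wild-type skin were at 125.7 and 302.8 CPM of Tchh, so such levels also occurred in wild-type skin of other groups. With cohort B as the only wild-type, Sprr1a passed with a difference of 1.45 (adjusted p = 0.0395), and Sprr1b, Sprr2h, Crnn and Tchh did not (adjusted p = 0.176, 0.101, 0.209 and 0.101). The 4 other genes that passed there had not passed against both cohorts: Lor (-2.67), Sprr4 (-1.98), Lce1m (-1.91) and Flg2 (-2.41), with adjusted p = 0.0116, 0.0101, 0.00244 and 0.00284. Without MC903 replicate 1 or 3 or ethanol replicate 3 of the BLT1 KO, 7, 6 and 7 genes passed. The comparisons of aGr1, TSLPR KO and BLT1 KO with wild-type all share the uninjected wild-type day 8 libraries.

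**Figure D4:**
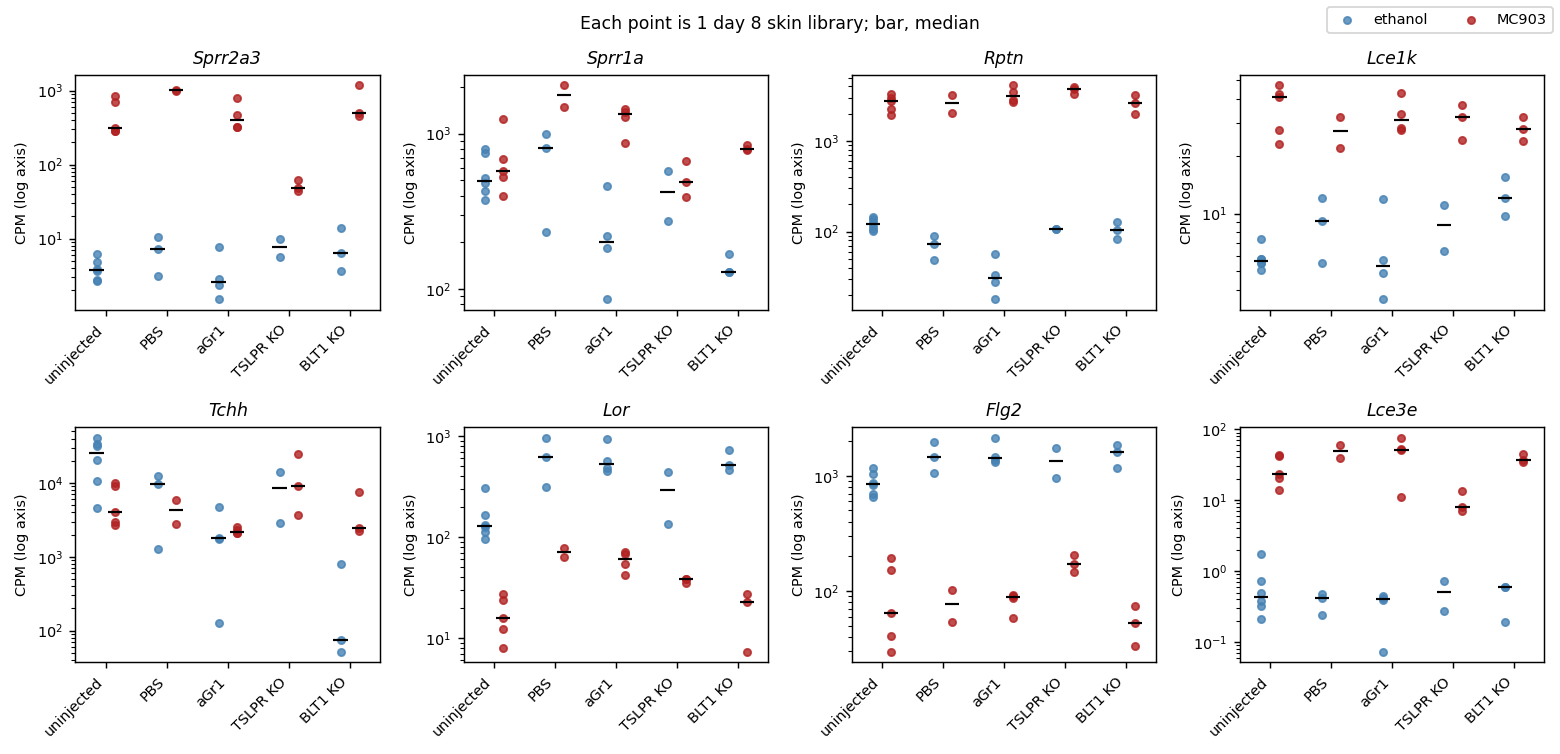
Level of 8 genes (CPM, log axis) in each day 8 skin library with ethanol (blue) or MC903 (red) for uninjected wild-type, PBS, aGr1, TSLPR KO and BLT1 KO mice, with the median as a bar. The MC903 libraries of TSLPR KO lie at 43.97 to 62.8 CPM for Sprr2a3, under all other MC903 groups, and the ethanol libraries of BLT1 KO lie at 51.6 to 800 CPM for Tchh.

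The genes around the cornified envelope were followed by a list of 30 other genes of cornification (transglutaminases, desquamation proteases and their inhibitors, desmosomal and other envelope genes). On day 1, 4 of 29 tested were higher and 7 lower, at backgrounds of 5.51% and 7.47% of all genes. Klk7, a desquamation protease, Padi3, which converts arginine to citrulline in trichohyalin and filaggrin, and Tgm1, the main transglutaminase of the envelope, were higher (log2 fold changes 0.82, 1.24 and 0.64), and Pglyrp4, Tgm5 and Sbsn were lower (-0.76, -0.96 and -0.64). On day 2 none of 29 passed. On day 5, 16 of 29 were higher (8.15% of all genes) and none lower (6.78%), among those higher Klk7, the hydrolase Blmh, which takes part in breaking down filaggrin, and the corneodesmosome protein Cdsn (3.04, 2.81 and 2.93). On day 8, 14 were higher (12.2% of all genes), among them Pglyrp4, Pglyrp3 and Klk7 (1.96, 2.39 and 1.49), and 5 lower (11.2%), among them periplakin (Ppl, -1.32), sciellin (Scel, -0.52) and Padi3 (-1.82). After PBS 4 of 29 were higher and 2 lower (3.26% and 0.721% of all genes), and after aGr1 15 and 7 (15.1% and 17.5%). In TSLPR KO skin 3 of 29 were higher and 1 lower on day 8 (1.3% and 1.14%), and 12 and 0 on day 12 (5.41% and 4.62%). In BLT1 KO skin 12 of 30 were higher and 7 lower (14.1% and 14.6%). The shares lower on day 8, after aGr1 and in BLT1 KO skin thus stood nearer to those of all genes than the shares higher did. Klk7 was higher in each of these 5 groups, with log2 fold changes from 1.66 to 2.55.

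Of 14 regulators of terminal differentiation, Ovol1 was higher and Grhl3 lower on day 1 (log2 fold changes 0.64 and -0.44), 1 of 14 in each direction beside 5.51% and 7.47% of all genes, and none passed on day 2. On day 5, 7 were higher (8.15% of all genes) and none lower (6.78%), led by the AP-1 subunit Fosl1 (3.04), Nfe2l2 (1.49), the NRF2 factor that activates Sprr2 genes, and Prdm1 (1.30). On day 8, 5 were higher (12.2% of all genes), among them Nfe2l2 (1.43), Fosl1 (2.07) and Cebpb (0.66), and 2 lower (11.2%), Gata3 (-1.02) and Notch1 (-0.73). After PBS 3 of 14 were higher and 0 lower (3.26% and 0.721% of all genes), and after aGr1 6 and 2 (15.1% and 17.5%). In TSLPR KO skin 2 were higher and 1 lower on day 8 (1.3% and 1.14%), and 2 and 0 on day 12 (5.41% and 4.62%), and in BLT1 KO skin 7 and 3 (14.1% and 14.6%). With 14 genes, the single calls of day 1 and the 2 lower on day 8 and after aGr1 are near the shares of all genes. Fosl1 and Nfe2l2 were higher in all 5, with log2 fold changes of 1.498 to 4.14 and 1.11 to 1.73.

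In trigeminal ganglia, which hold the cell bodies of the sensory neurons of the cheek, Sprr1a is of interest because it is a known gene of injured and regenerating neurons. It was above 3 counts in 52 of 56 ganglion libraries but low, with a median of 1.14 CPM. MC903 gave no call at the adjusted p of 0.1 used for ganglia in any of 8 comparisons: the log2 fold changes were 2.41 on day 1 (SE 0.80, adjusted p = 0.574), -1.46 on day 2, -1.12 on day 5 and -1.06 on day 8 (adjusted p = 0.725, 1.0 and 0.783), and -1.10 after PBS, -0.98 after aGr1, 3.08 in TSLPR KO on day 8 and -0.42 on day 12 (adjusted p = 0.448, 0.487, 0.605 and 0.917). Sprr1a had an unadjusted p under 0.05 on days 1 and 2 and in TSLPR KO on day 8 (0.0131, 0.0104 and 0.0352), with edgeR calling 0 genes of all in each of these.

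The high values came from single libraries. On day 1 Sprr1a was at 0.902, 1.32, 2.53 and 2.55 CPM with ethanol and at 2.69, 3.36, 4.45 and 32.5 CPM with MC903. In TSLPR KO on day 8 it was at 0.585 and 1.24 CPM with ethanol and at 0.678 and 13.5 CPM with MC903, and on day 5 at 1.77, 1.86 and 10.1 CPM with ethanol and 1.88, 1.89 and 2.51 CPM with MC903. The 3 libraries at 32.5, 13.5 and 10.1 CPM were also those with the most basal and suprabasal keratinocyte markers, at 525.8, 265 and 187 CPM, and with the highest sums of the other 45 cornified envelope genes, at 869, 314 and 320 CPM. In the other 53 ganglion libraries these markers were at 2.51 to 132.6 CPM and Sprr1a at 0.0293 to 4.67 CPM. The injury gene Atf3 was at 1.88, 6.29 and 2.54 CPM in the 3 libraries. Without the library at 13.5 CPM the TSLPR KO value was -0.45, and without the one at 10.1 CPM the day 5 value was 0.27. Without the library at 32.5 CPM the day 1 value kept its direction at 0.89 (edgeR adjusted p = 0.819). Every MC903 library of day 1 was above every ethanol library. In spinal cord Sprr1a was at 0.0 to 1.19 CPM over 27 libraries of uninjected, PBS-injected and aGr1-injected mice. According to the paper, cord came from mice treated on the rostral back, with a larger volume than on the cheek.

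**Figure D5:**
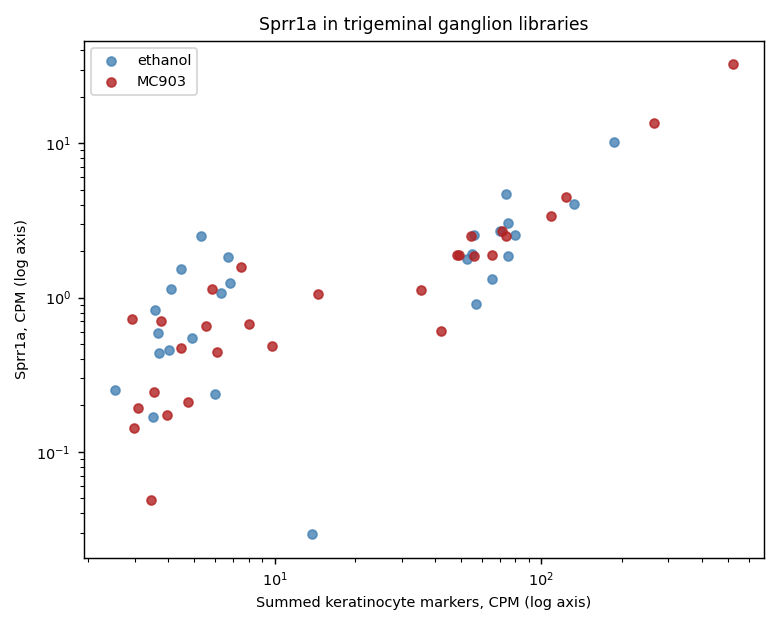
Sprr1a (vertical axis, CPM, log axis) against the sum of 8 basal and suprabasal keratinocyte markers (horizontal axis, CPM, log axis) in 56 trigeminal ganglion libraries with ethanol (blue) or MC903 (red). The 3 libraries highest in Sprr1a, at 10.1, 13.5 and 32.5 CPM, are also the 3 highest in the markers, and below 10 CPM of markers Sprr1a spans 0.0485 to 2.5 CPM.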

How the data were processed

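Poly(A)-selected RNA was sequenced as 50-base single-end reads. The deposited values are raw counts per Ensembl gene and library, made by the authors with Bowtie2, TopHat and htseq-count on mm10; the annotation release and strand setting are not given in the sources used here. Reads shared by near-identical genes may be lost or split between them by such counting. Symbols and positions came from GENCODE M21 (GRCm38), which matched 45229 of 46078 identifiers.

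Each comparison was fitted in R 4.3.3 with edgeR 4.0.16 (quasi-likelihood F test, TMM, total count of a gene 10 or more), with Benjamini-Hochberg adjustment over all genes. A call is an adjusted p under 0.05 in skin and 0.1 in ganglia. A difference between 2 MC903 effects was an interaction term. The SE was derived from each fit as the absolute log2 fold change divided by the square root of the F statistic. Levels are CPM without TMM, and RPKM uses exonic length. DESeq2 1.42.0, RLE factors, filterByExpr, no filter, 1 fit over days, single cohorts, a replicate block and leaving out each library were tried. The scripts were tested on simulated data.

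Full values go to up to 3 members per direction with the smallest p, and to Lor, Ivl, Flg, Flg2, Hrnr, Rptn, Sprr1a and Sprr1b; other members named were chosen after their values were seen. Members and lists were chosen with earlier results of these data known. In ganglia on day 5 and in TSLPR KO on day 12, every pair of same-numbered libraries deviated together (correlations of 0.11 to 0.28 and 0.15 to 0.43). Pairs with different numbers were not examined and no label gives a pairing, so these values do not settle whether the libraries were paired. In skin every pair was also positive on day 2 (0.21 and 0.18) and in TSLPR KO on day 8 (0.17 and 0.04). There the 2 ethanol libraries deviate from their mean as mirror images, so the pairs are not separate and pairing could not be judged. In no other skin comparison was every pair positive.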

Additional observations from a re-analysis of the deposited data

Results flagged for a closer look

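Among 90 groups of 4 to 10 libraries with full values, 7 held 1 library set apart from the rest of its group by Dixon's criterion, and chance flags about 1 in 20 groups. In skin these were a high ethanol library for Flg2 after aGr1 (2150 CPM), for Lor on day 8 (305 CPM) and for Sprr1a on day 1 (392 CPM), a high MC903 library for Sprr2a3 on day 1 (21.8 CPM) and for Sprr1b in TSLPR KO on day 12 (759 CPM), and a low MC903 library for Lce1l on day 1 (14.9 CPM). In ganglia, Sprr1a was at 32.5 CPM in MC903 replicate 1 of day 1.

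The MC903 effect differed between groups, by a test of the difference itself, for these members. Between aGr1-injected and uninjected mice the log2 differences were 1.86 for Sprr1a, -0.99 for Lce1a2 and 1.87 for Rptn, and none passed against PBS-injected mice. Between TSLPR KO and wild-type they were -3.64 for Sprr2a1, -3.71 for Sprr2a2 and -3.98 for Sprr2a3, and between BLT1 KO and wild-type 2.24 for Sprr1a, -1.38 for Lce1k and 5.96 for Tchh, of which Sprr1a alone passed with cohort B as the only wild-type. Between day 5 and day 1 they were 3.93 for Lce1e, 3.87 for Lce1k and 7.11 for Rptn, and between day 8 and day 5 -4.28 for Sprr2h, -3.57 for Sprr1b and -2.76 for Rptn.

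Wild-type day 12, used in no comparison, held members at up to 29400 CPM in a library labelled trigeminal ganglion, where the highest of the other ganglion libraries was at 902 CPM. In all, 7 of 9 libraries so labelled were at 2530 CPM or more, and 6 of 9 labelled skin had 2.79 to 4.4 CPM of members beside 9740 to 10900 CPM of sensory neuron markers.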

How the results depend on the processing

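Day 1 calls fell from 12 to 4 with 1 fit over days 1 to 8 and 7 with the replicate block, and spanned 5 to 20 with each library left out. Day 2 calls rose from 0 to 23 with 1 fit over days 1 to 8, 17 by DESeq2, 5 with no filter and 23 with the replicate block, and spanned 0 to 8 with a library left out. Leaving out a library gave 11 to 29 calls after PBS and 11 to 23 in TSLPR KO on day 8, and the replicate block gave 18 calls in TSLPR KO on day 12 in place of 30. For the difference between aGr1 and uninjected mice, 3 calls became 9 by DESeq2, 5 with filterByExpr, 0 against PBS-injected mice and 1 to 7 without 1 library. For TSLPR KO, 3 calls became 8 by DESeq2, 5 with no filter and 0 to 7 without 1 library. For BLT1 KO, 14 calls stood against 5 with cohort B alone, of which 1 (Sprr1a) was among the 14, and against 6 to 17 without 1 library. For day 8 against day 5, 5 calls became 11 by DESeq2, 2 with cohort B alone and 3 to 7 without 1 library. The cause of these shifts was not tested. In skin on day 2 and in TSLPR KO on day 8, where pairing could not be judged, the block gave 23 and 26 calls. In the other skin comparisons the numbers are shared only as numbers, so a call lost under the block there is not described as a weaker effect.

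Without 1 library, Sprr1a in ganglia ranged from 0.89 to 2.73 on day 1. It ranged from -1.99 to -1.09 on day 2 (-1.75 without ethanol replicate 2), and from -1.51 to 0.27 on day 5, reversed without ethanol replicate 1. In TSLPR KO on day 8 it was 3.07 with no filter (adjusted p = 4.54e-07), 2.10 with the replicate block (adjusted p = 0.061) and from -0.45 to 4.03 without 1 library, reversed without MC903 replicate 1, and on day 12 from -0.80 to 0.14, reversed without ethanol replicate 4. On day 5 and in TSLPR KO on day 12, where same-numbered ganglion libraries deviated together, the block changed no call.

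Of 1225 refits of the named members, 1121 kept direction and call and 104 lost the call with the same direction. Depth limits the scarce members most: Sprr3, Sprr2k and Sprr2j-ps, at or near 0 with ethanol, give folds that depend on the floor.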
